A study of Mus musculus with 6 samples.

Results

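The genes of cholesterol and fatty acid synthesis were examined in mouse macrophages at rest, after lipopolysaccharide (LPS, the bacterial ligand of Toll-like receptor 4), and after LPS in cells pretreated with an inhibitor of the deubiquitinase USP7. The set held 31 genes, chosen by name, of the 34844 gene names on the array: 7 of the mevalonate and isoprenoid pathway, 10 of squalene and sterol synthesis, 6 regulators of the SREBP transcription factors and sterol carriers, and 8 of fatty acid synthesis and desaturation. Expression was measured on 6 one-color arrays, 2 per group, from independent experiments. All groups were wild type bone marrow-derived macrophages of female C57BL/6 mice (C57BL6/J in the methods), differentiated for 7 days in L929 conditioned medium. The untreated group received no LPS and no inhibitor, the LPS group received LPS for 4 h, and the LPS+USP7i group received 10 µM of the USP7 inhibitor HBX41,108 for 30 min and then LPS for 4 h. The LPS dose is 100 ng/ml in the series description and 100 ng/µl in the treatment label, the age of the mice is given as 6 to 8 weeks in the labels and 8 to 12 weeks in the methods, and no solvent control for the inhibitor is described.

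Cells make cholesterol from acetyl-CoA through mevalonate, isoprenoids, squalene and lanosterol, and they make fatty acids from acetyl-CoA through malonyl-CoA. SREBP-2 and SREBP-1, encoded by Srebf2 and Srebf1, switch on the genes of both pathways. Their precursors are carried by Scap from the endoplasmic reticulum to the Golgi for cleavage when sterols are low, and the Insig proteins hold Scap back when sterols are high. In macrophages, LPS signaling is known to alter both pathways.

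Promoter sequence was available in a RefSeq table (GRCm38.p6) for 24 of the 31 genes, as the 250 bases before each listed transcription start. The windows below are of the 3 genes with a listed start among the 4 leading in calls and differences (Fasn, Insig1 and Acaca). Hmgcs1 is shown as well, added after the motif search because it held the only match to TCACNCCAC among the 24 genes. TCACNCCAC is a classical form of the sterol regulatory element, where N is any base. The windows are written 5′ to 3′ on the gene's strand. Matches to TCACNCCAC or CCAAT (bound by NF-Y, which acts with SREBPs), on either strand, are in capitals.
Fasn, chr11:120824548-120824797, minus strand: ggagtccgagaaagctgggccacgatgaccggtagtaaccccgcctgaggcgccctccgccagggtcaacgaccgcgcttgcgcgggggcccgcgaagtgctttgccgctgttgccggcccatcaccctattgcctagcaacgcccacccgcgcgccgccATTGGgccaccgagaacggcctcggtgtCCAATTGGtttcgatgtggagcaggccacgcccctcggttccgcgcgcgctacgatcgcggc
Insig1, chr5:28071162-28071411, plus strand: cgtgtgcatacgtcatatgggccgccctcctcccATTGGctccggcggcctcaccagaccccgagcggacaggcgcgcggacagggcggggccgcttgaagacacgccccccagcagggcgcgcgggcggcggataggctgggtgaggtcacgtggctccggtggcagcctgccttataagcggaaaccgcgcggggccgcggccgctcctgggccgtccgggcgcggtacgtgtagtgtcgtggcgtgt
Acaca, chr11:84195188-84195437, plus strand: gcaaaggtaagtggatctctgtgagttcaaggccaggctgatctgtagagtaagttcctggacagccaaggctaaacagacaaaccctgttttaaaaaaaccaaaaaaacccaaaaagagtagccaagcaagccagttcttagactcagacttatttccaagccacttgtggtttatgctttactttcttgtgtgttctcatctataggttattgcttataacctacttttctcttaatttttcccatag
Hmgcs1, chr13:119690101-119690350, plus strand: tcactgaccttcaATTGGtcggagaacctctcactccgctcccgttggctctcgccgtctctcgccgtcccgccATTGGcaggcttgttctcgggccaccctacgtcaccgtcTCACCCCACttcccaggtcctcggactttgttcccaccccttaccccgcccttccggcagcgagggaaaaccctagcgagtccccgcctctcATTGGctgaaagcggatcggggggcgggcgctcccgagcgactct
The Fasn window held 3 CCAAT matches, of which the pair nearest the start overlap, and the Insig1 window held 1. The Acaca window, at the only start listed for the gene, held none. Its bases were 39.2% G or C, against 69.2% for Fasn and 72.8% for Insig1. Whether that start is the one used in these cells was not tested, so the absence of a match holds for that window only. CCAAT was found in 18 of the 24 genes and in 37.5% of the 27025 genes in the table, and GGGCGG, the core of an Sp1 site, in 20 of the 24 and in 35.4%. TCACNCCAC was found in 1 of the 24 and in 1.22% of all genes, and ATCACGTGA, an E-box form of the element, in 0 of the 24 and in 0.326%. These are matches of letters in one window per start, not binding sites.

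All 31 genes were on the array, with 47 probes in all. For each gene the brightest probe was used, and its level is given as the log2 of the quantile-normalized processed signal. Of the 31 genes, 30 were well above background on all 6 arrays, and Fasn was well above background on the untreated and LPS+USP7i arrays but on neither LPS array. Differences were tested with limma in one fit over all probes, and a gene was called at a Benjamini-Hochberg adjusted p under 0.05. With 2 arrays against 2, an exact permutation test of a single gene cannot go below p = 0.333 (two-sided), so the calls rest on limma, which estimates the variance of each probe over all 3 groups (3 residual degrees of freedom) and moderates it with 1.05 prior degrees of freedom from the other probes. A replicate block, named below where it changed a call of the 31 genes, adds the replicate number, which is also the slide column, to that fit.

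The 6 arrays lay on 1 slide read in 1 scan, with 25002 to 27467 of 59305 spots well above background and 0 saturated. Slide columns 1 and 2 held replicates 1 and 2, and each group had a row of its own, so slide row and treatment cannot be told apart. All 7 macrophage markers examined (Csf1r, Cd68, Adgre1, Itgam, Lyz2, Mertk and Fcgr1) were well above background on every array. Of 5 adipocyte genes, Adipoq, Plin1 and Lep were above background on none, Fabp4, which macrophages also make, was bright, and Cfd was above background on both LPS+USP7i arrays (5.84 on replicate 2, the other spot being left out as an outlier), on 1 untreated array and on no LPS array. The summed linear signal of the 5 adipocyte genes was 17450 and 29840 on the untreated arrays, 13110 and 18790 on the LPS arrays, and 34290 and 47310 on the LPS+USP7i arrays. The summed signal of 7 neutrophil genes lay between 5042 and 6749 over the 6 arrays. Mpo and Ly6g of that list were higher in replicate 1 of each group, and Elane, Ngp, Camp, Ltf and S100a8 in replicate 2. The sum of 5 T cell genes lay between 1722 and 2357, with Cd3e and Cd4 above background on every array. That of 5 B cell genes lay between 314.5 and 1153, higher in replicate 1 of each group. The summed signal of 5 fibroblast and stroma genes was 62.93 and 79.26 untreated, 579.4 and 550.9 after LPS, and 96 and 97.35 after LPS+USP7i. Most of that signal after LPS was Pdgfrb, while Col1a1 and Col3a1 were above background on no array. The sum of 4 dendritic cell genes was 45040 and 38050 untreated, 25330 and 24850 after LPS, and 51410 and 34660 after LPS+USP7i, with Flt3 and Xcr1 above background on none. Nearly all of that sum was Siglech, with log2 levels of 15.46 and 15.21 untreated and 14.62 and 14.59 after LPS. Zbtb46 went the other way, with a mean log2 level of 3.94 untreated and 6.44 after LPS. Of all these markers, Pdgfrb and Zbtb46 were called higher and Itgam lower with LPS, and Pax5 and Adipoq were called higher and Fcgr1 lower between LPS+USP7i and LPS. The part of other cells in the results below was not tested, and in these bulk samples a change in cell number of one type and a change in RNA per cell cannot be told apart.

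After 4 h of LPS, genes called lower were found in mevalonate, sterol and fatty acid synthesis, and Insig1 was called higher. Of the 31 genes, 9 were called lower (29.0%) and 1 was called higher (3.23%). Among all gene names, 12.8% were called lower and 7.98% higher, and among the 18343 expressed genes, those with both arrays of some group well above background, these shares were 23.0% and 13.8%. The median log2 difference of the 31 genes was -0.33, against -0.19 over the expressed genes, and 25 of the 31 values were below 0 (20 under 75th percentile scaling, which raised the median of all genes by 0.40, with 29 of the 31 below that median). Among the expressed genes, 59.9% of values were below 0 in the main fit. The share called lower was thus near that of expressed genes, and what follows describes single genes.

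**Figure D1:**
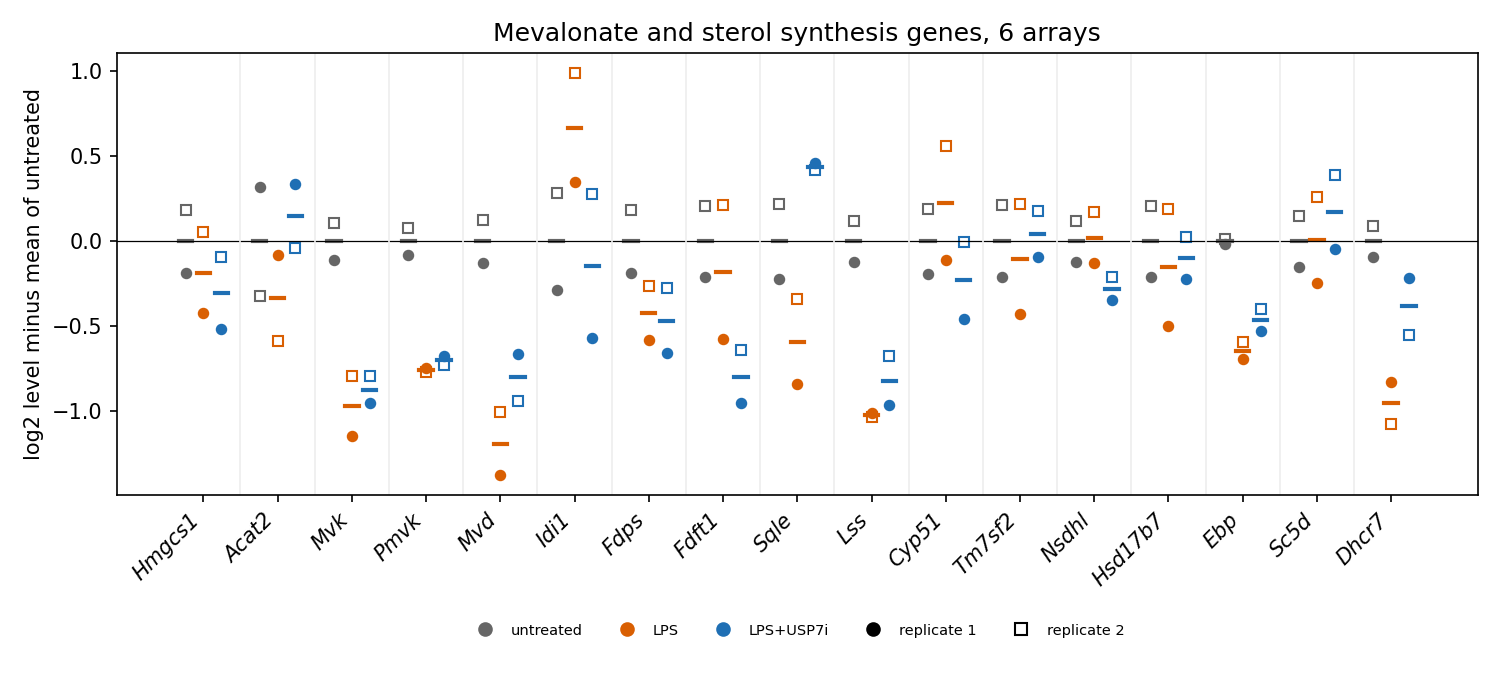
Log2 level of 17 mevalonate and sterol synthesis genes on each array, minus the mean of the 2 untreated arrays of the gene. Circles are replicate 1, open squares replicate 2 and bars group means of 2 arrays. Mvk, Pmvk, Mvd, Lss, Ebp and Dhcr7 lie below 0 on both LPS arrays, and Sqle lies above 0 on both LPS+USP7i arrays.

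In the mevalonate pathway, the genes of the enzymes that act in sequence on mevalonate itself were called lower with LPS at their brightest probes. Mvk, mevalonate kinase, had log2 levels of 11.49 and 11.71 untreated, 10.45 and 10.81 after LPS, and 10.65 and 10.81 after LPS+USP7i. Both untreated arrays were above all 4 others, which lay together. Mvk was 1.96-fold lower with LPS than in untreated cells (log2 difference -0.97, SE 0.17, limma adjusted p = 0.030) and stayed 1.83-fold lower with LPS+USP7i (-0.87, adjusted p = 0.047). A dimmer Mvk probe, above background on all 6 arrays, differed from untreated cells by -0.78 with LPS and -0.81 with LPS+USP7i. Neither was called (adjusted p = 0.085 and 0.092), while the mean over both probes was called with LPS (adjusted p = 0.036).

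Pmvk, phosphomevalonate kinase, catalyzes the following step. Its levels were 12.23 and 12.39 untreated, 11.57 and 11.54 after LPS, and 11.64 and 11.59 after LPS+USP7i. The treated arrays again lay together below the untreated arrays. The difference from untreated cells was -0.76 for LPS (SE 0.079, limma adjusted p = 0.0097) and -0.70 for LPS+USP7i (adjusted p = 0.016). Under 75th percentile scaling the LPS difference was -0.44, still called (adjusted p = 0.021). With the deposited values the LPS+USP7i difference was -0.65 and not called (adjusted p = 0.061). A dimmer Pmvk probe, above background on all 6 arrays, differed by -0.56 with LPS, which was not called (adjusted p = 0.059). Its LPS+USP7i difference from untreated cells, -0.70, was called (adjusted p = 0.042), as was the mean over both probes with LPS (adjusted p = 0.017).

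Mvd, mevalonate diphosphate decarboxylase, completes the sequence. Its levels were 9.67 and 9.93 untreated, 8.43 and 8.80 after LPS, and 9.14 and 8.86 after LPS+USP7i. All untreated values exceeded all others, and the LPS+USP7i values lay above the LPS values, by 0.71 in replicate 1 and 0.067 in replicate 2. The fall with LPS was 2.28-fold (-1.19, SE 0.19, limma adjusted p = 0.026), while the difference of LPS+USP7i from untreated cells, -0.80, was not called (adjusted p = 0.082). With the replicate block the LPS call was lost (adjusted p = 0.050), and the difference of LPS+USP7i from untreated cells was called with 75th percentile scaling, normexp and without dim probes (adjusted p from 0.020 to 0.029).

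The genes on either side of these steps did not pass the test in the fit without a block. Hmgcs1, which makes the HMG-CoA that feeds the pathway, differed by -0.18 with LPS (limma adjusted p = 0.77), Acat2 by -0.33 and Fdps, farnesyl diphosphate synthase, by -0.42. Idi1, the isomerase that follows Mvd, had levels of 10.34 and 10.91 untreated, 10.98 and 11.62 after LPS, and 10.06 and 10.91 after LPS+USP7i. Its replicates differed by as much as its groups, and its differences of 0.67 with LPS and -0.81 between LPS+USP7i and LPS were not called (adjusted p = 0.45 and 0.41), although each had the same sign in both replicates. With the replicate block Idi1 was called higher (adjusted p = 0.040) and Fdps lower (0.035) with LPS, and Fdps also lower between LPS+USP7i and untreated cells (0.037).

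In sterol synthesis, 3 of 10 genes were called lower with LPS, against 23.0% of the expressed genes. Lss, lanosterol synthase, which closes the rings of the sterol, had levels of 8.13 and 8.37 untreated, 7.24 and 7.22 after LPS, and 7.29 and 7.57 after LPS+USP7i. The LPS arrays were about equal and the LPS+USP7i arrays above them, by 0.047 in replicate 1 and 0.36 in replicate 2. Lss fell 2.03-fold with LPS (-1.02, SE 0.14, limma adjusted p = 0.018) and was 1.76-fold below untreated with LPS+USP7i (-0.82, adjusted p = 0.038).

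Ebp, the sterol isomerase, and Dhcr7, the reductase that makes cholesterol from 7-dehydrocholesterol, act late in the pathway. Ebp had levels of 14.10 and 14.13 untreated, 13.42 and 13.53 after LPS, and 13.59 and 13.72 after LPS+USP7i. The groups did not overlap, and Ebp differed by -0.64 with LPS (SE 0.078, limma adjusted p = 0.014) and by -0.46 between LPS+USP7i and untreated cells (adjusted p = 0.037). Under 75th percentile scaling these were -0.094 and -0.15, neither called (adjusted p = 0.62 and 0.44), and with the deposited values neither was called (adjusted p = 0.071 and 0.13). Dhcr7 had levels of 8.51 and 8.69 untreated, 7.78 and 7.53 after LPS, and 8.39 and 8.05 after LPS+USP7i. It fell by 0.95 with LPS (SE 0.17, adjusted p = 0.032), and its LPS+USP7i values lay between those of the other groups, 0.57 above LPS (adjusted p = 0.15) and 0.38 below untreated (adjusted p = 0.29). The LPS call was lost with the replicate block (adjusted p = 0.052), and the difference from LPS was called with normexp (0.43, adjusted p = 0.048).

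Sqle, squalene epoxidase, a rate-limiting enzyme of the sterol branch, had another pattern. Its levels were 11.26 and 11.70 untreated, 10.65 and 11.14 after LPS, and 11.94 and 11.90 after LPS+USP7i. The LPS+USP7i arrays were the highest of the 6. Sqle was 2.04-fold higher with LPS+USP7i than with LPS (1.03, SE 0.24), which was not called (limma adjusted p = 0.091) but was called with normexp (1.07, adjusted p = 0.014) and without dim probes (adjusted p = 0.028). Its difference of -0.59 with LPS was not called (adjusted p = 0.22). The other 6 sterol genes (Fdft1, Cyp51, Tm7sf2, Nsdhl, Hsd17b7 and Sc5d) were called in no comparison. At their brightest probes the differences ran from -0.18 to 0.23 with LPS and from -0.62 to 0.17 between LPS+USP7i and LPS. A dimmer Fdft1 probe, above background on all 6 arrays, differed from untreated cells by 0.52 with LPS and 0.62 with LPS+USP7i, neither called. The brighter probe differed by -0.18 and -0.80, so the direction for Fdft1 is not settled by these arrays.

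**Figure D2:**
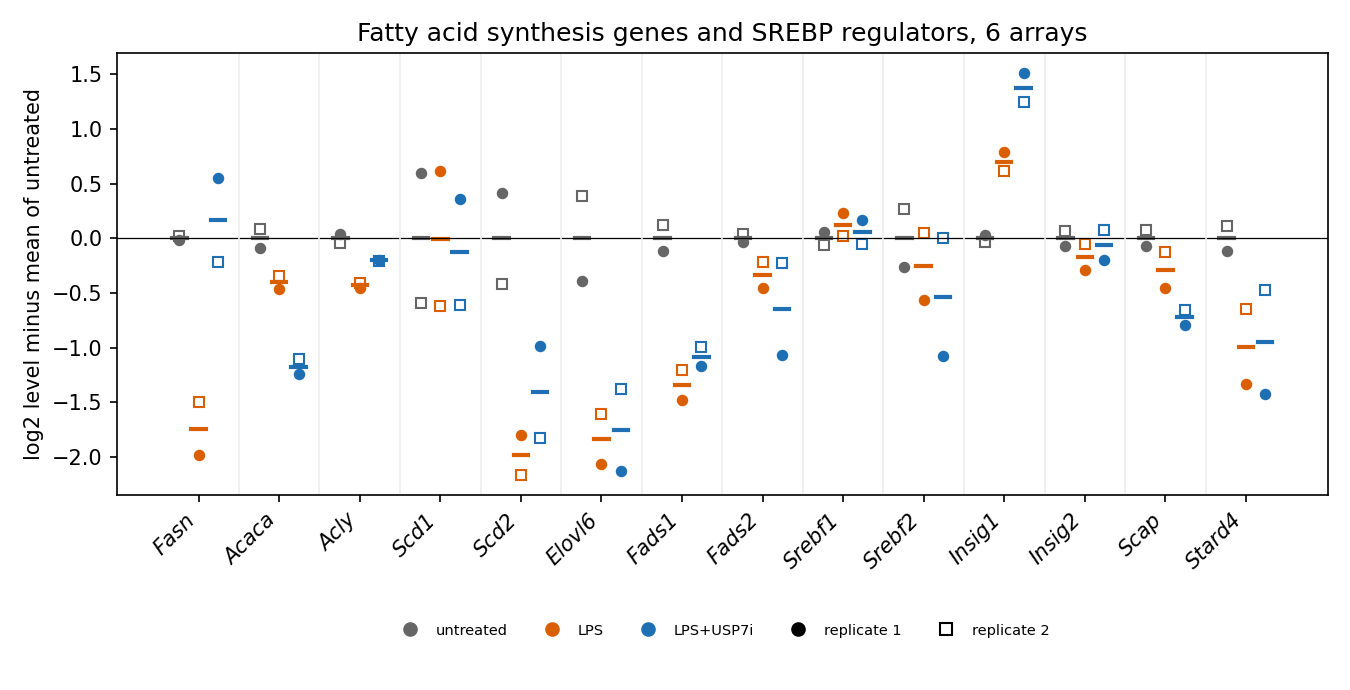
Log2 level of 8 fatty acid synthesis genes and 6 SREBP regulators and sterol carriers on each array, minus the mean of the 2 untreated arrays of the gene. Circles are replicate 1, open squares replicate 2 and bars group means of 2 arrays. Fasn is low on the LPS arrays alone, Acaca is lowest and Insig1 highest on the LPS+USP7i arrays, and Scd1 is split by replicate in each group.

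All 8 fatty acid genes had values below 0 for LPS against untreated cells, with a median log2 difference of -0.88, and 3 of them were called lower. Of the expressed genes, 59.9% had values below 0 and 23.0% were called lower in that comparison. Under 75th percentile scaling 6 of the 8 values were below 0, the exceptions being Acly and Scd1, and all 8 were below the median of all genes. Fasn, fatty acid synthase, which builds palmitate, had levels of 5.41 and 5.44 untreated, 3.44 and 3.93 after LPS, and 5.98 and 5.21 after LPS+USP7i. Both LPS arrays were below the other 4 and were not well above background, so the fold changes of Fasn against LPS are given as bounds, computed from a detection floor that is higher than the values printed. Fasn was at least 1.92-fold lower with LPS than in untreated cells (measured log2 difference -1.74, SE 0.33, limma adjusted p = 0.037). The measured difference was -0.54 with normexp background correction, and it was not called with a trended prior (adjusted p = 0.059) or with the replicate block (0.073).

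Acly, ATP citrate lyase, which supplies cytosolic acetyl-CoA to both pathways, had levels of 13.40 and 13.31 untreated, 12.90 and 12.95 after LPS, and 13.16 and 13.15 after LPS+USP7i. The 3 groups did not overlap, with LPS+USP7i between the others. Acly fell by 0.43 with LPS (SE 0.064, limma adjusted p = 0.021). Under 75th percentile scaling its difference was 0.063, or -0.34 relative to the median of all genes, so the direction depended on the scaling. The call was also lost with the deposited values (adjusted p = 0.19) and with the mean over its probes (adjusted p = 0.29).

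Fads1, the delta-5 desaturase of polyunsaturated fatty acids, had levels of 10.84 and 11.08 untreated, 9.49 and 9.75 after LPS, and 9.79 and 9.96 after LPS+USP7i. Every treated array was below both untreated arrays. The fall was 2.53-fold with LPS (-1.34, SE 0.15, limma adjusted p = 0.011) and 2.12-fold for LPS+USP7i against untreated (-1.08, adjusted p = 0.023).

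The differences of Scd2 and Elovl6 with LPS were larger in size than that of Fads1 but did not pass the threshold. Scd2, a stearoyl-CoA desaturase, had levels of 12.49 and 11.65 untreated, 10.27 and 9.90 after LPS, and 11.09 and 10.24 after LPS+USP7i. Elovl6, which lengthens palmitate to stearate, had levels of 6.82 and 7.59 untreated, 5.14 and 5.60 after LPS, and 5.08 and 5.83 after LPS+USP7i. For both genes the untreated arrays were above all treated arrays. The LPS difference was -1.98 for Scd2 (SE 0.44, limma adjusted p = 0.056) and -1.84 for Elovl6 (SE 0.42, adjusted p = 0.059), neither called. Both were called with 75th percentile scaling, normexp (where Elovl6 was -1.03), the deposited values, the mean over probes, the dim probes left out, and the replicate block (adjusted p from 0.0098 to 0.048). With a trended prior Scd2 was called (adjusted p = 0.039) and Elovl6 was not (0.053), and neither was called in the fit of 2 groups (adjusted p = 0.070 and 0.079). Between LPS+USP7i and untreated cells it was -1.41 for Scd2 (adjusted p = 0.15) and -1.75 for Elovl6 (adjusted p = 0.080). In that comparison Elovl6 was called with 75th percentile scaling, normexp, the deposited values, without dim probes and with the replicate block (adjusted p from 0.017 to 0.032), at -0.95 with normexp, and Scd2 without dim probes (adjusted p = 0.043) and with the block (0.034).

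Scd1, the paralog of Scd2, had levels of 8.24 and 7.05 untreated, 8.26 and 7.02 after LPS, and 8.00 and 7.03 after LPS+USP7i. Replicate 1 was above replicate 2 by about the same amount in each group, and within a replicate the values were close together. The difference with LPS was -0.0047, with a 95% interval from -1.92 to 1.91. Fads2, the delta-6 desaturase, differed by -0.33 with LPS and -0.31 between LPS+USP7i and LPS, neither called.

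Among the regulators, Insig1 was the 1 gene called higher with LPS. Its levels were 7.58 and 7.52 untreated, 8.34 and 8.17 after LPS, and 9.06 and 8.80 after LPS+USP7i. The groups formed 3 separate steps. Insig1 was 1.63-fold higher with LPS (0.70, SE 0.13, limma adjusted p = 0.033) and 2.60-fold higher with LPS+USP7i than in untreated cells (1.38, adjusted p = 0.011). The step from LPS to LPS+USP7i, 0.68, was not called (adjusted p = 0.057), but was with normexp (0.50, adjusted p = 0.020), without dim probes (0.027) and with the mean over probes (0.049).

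Srebf1, which encodes SREBP-1, had levels from 7.20 to 7.49 over all arrays and differed by 0.13 with LPS (95% interval -0.22 to 0.47). Scap, the SREBP escort, had levels of 12.81 and 12.95 untreated, 12.43 and 12.76 after LPS, and 12.09 and 12.23 after LPS+USP7i. The groups did not overlap, and the difference of LPS+USP7i from untreated cells was -0.72 (limma adjusted p = 0.055). It was called lower with normexp, without dim probes, with a trended prior, with the replicate block and with the mean over probes (adjusted p from 0.022 to 0.047). Stard4, a sterol carrier, differed by -0.99 with LPS (adjusted p = 0.24) at its brighter probe and by 0.62 (adjusted p = 0.37) at a dimmer one, also above background on all arrays, with a mean over probes of -0.19, so its direction is not settled by these arrays. Insig2, the second Insig gene, differed by -0.17 (adjusted p = 0.55).

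Srebf2, which encodes SREBP-2, gave different results with its 2 probes, both annotated to the same transcript and both well above background on all arrays. The brighter probe (chr15:82030068-82030127, mm9) had levels of 12.67 and 13.20 untreated, 12.37 and 12.99 after LPS, and 11.86 and 12.94 after LPS+USP7i. Its groups overlapped and it was called in no comparison. The dimmer probe (chr15:82034765-82034824, mm9) had levels of 8.83 and 8.99 untreated, 10.14 and 10.21 after LPS, and 8.82 and 9.27 after LPS+USP7i. The LPS arrays of that probe stood above the other 4. It rose by 1.27 with LPS (SE 0.18, limma adjusted p = 0.018) and fell by 1.13 between LPS and LPS+USP7i (adjusted p = 0.041). The dimmer probe was singled out after its values were seen, and the direction for Srebf2 is therefore not settled by these arrays.

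**Figure D3:**
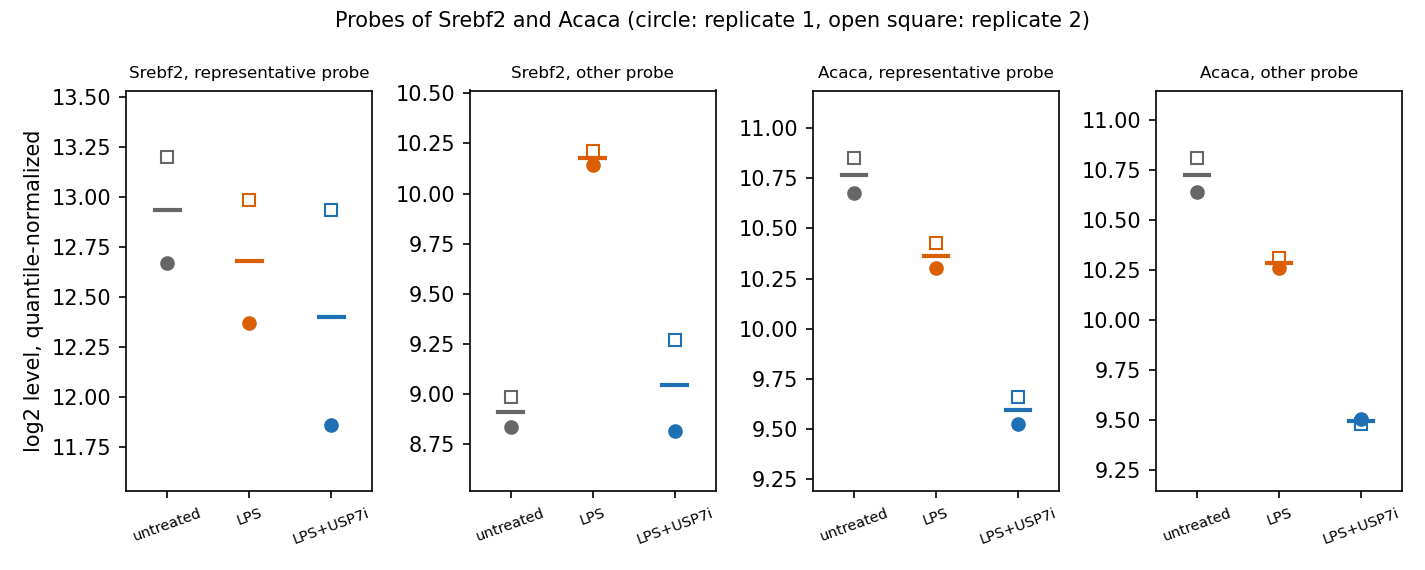
Log2 level of the probes of Srebf2 and Acaca that were well above background on all 6 arrays, by group, each panel spanning 2 log2 units. Circles are replicate 1, open squares replicate 2 and bars means of 2 arrays. The dimmer Srebf2 probe rises with LPS and the brighter one does not, and the Acaca probes share their steps.

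Against LPS alone, LPS+USP7i differed past the threshold in 2 of the 31 genes, both of fatty acid synthesis and in opposite directions. Of the 31, 1 was called lower and 1 higher (3.23% each). Over all gene names 4.28% were called lower and 5.51% higher, and among the 18343 expressed genes 7.29% and 9.73%. The median log2 difference of the set was 0.086, against 0.059 over the expressed genes. No gene of the mevalonate, sterol or regulator groups was called in this comparison in the fit described, although Sqle, Dhcr7 and Insig1 were called higher under the settings given above. The dimmer probe of Srebf2 was called lower, as given above.

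The gene called higher was Fasn, whose levels are given above. Both LPS+USP7i arrays lay near the untreated arrays, and Fasn was at least 2.16-fold higher with LPS+USP7i than with LPS (measured log2 difference 1.91, SE 0.33, limma adjusted p = 0.049). With normexp the difference was 0.68, and the call was lost with a trended prior (adjusted p = 0.070), in a fit of the 2 groups alone (0.13) and with the replicate block (0.089). Its replicates differed in size, at 2.54 in replicate 1 and 1.28 in replicate 2. Against untreated cells the difference was 0.17 (95% interval -0.73 to 1.07).

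The gene called lower was Acaca, acetyl-CoA carboxylase 1, which makes the malonyl-CoA that Fasn uses. Its levels were 10.68 and 10.85 untreated, 10.30 and 10.42 after LPS, and 9.53 and 9.66 after LPS+USP7i (probe at chr11:84215093-84215152, mm9). The 3 groups did not overlap, with LPS+USP7i lowest. Acaca was 1.71-fold lower with LPS+USP7i than with LPS (-0.77, SE 0.10, limma adjusted p = 0.030) and 2.25-fold lower than in untreated cells (-1.17, adjusted p = 0.010). The first of these calls was lost with the deposited values (adjusted p = 0.062), in a fit of the 2 groups alone (0.077) and with the mean over its probes (-0.51, 0.087). LPS alone differed from untreated cells by -0.40, which was not called (adjusted p = 0.079) except with the replicate block (0.038). A second bright probe for a cDNA named Acaca, which the file places on chr12, differed by -0.44, -0.79 and -1.23 in the comparisons of LPS with untreated, LPS+USP7i with LPS, and LPS+USP7i with untreated, all called, and the remaining 2 Acaca probes were above background on no array.

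**Figure D4:**
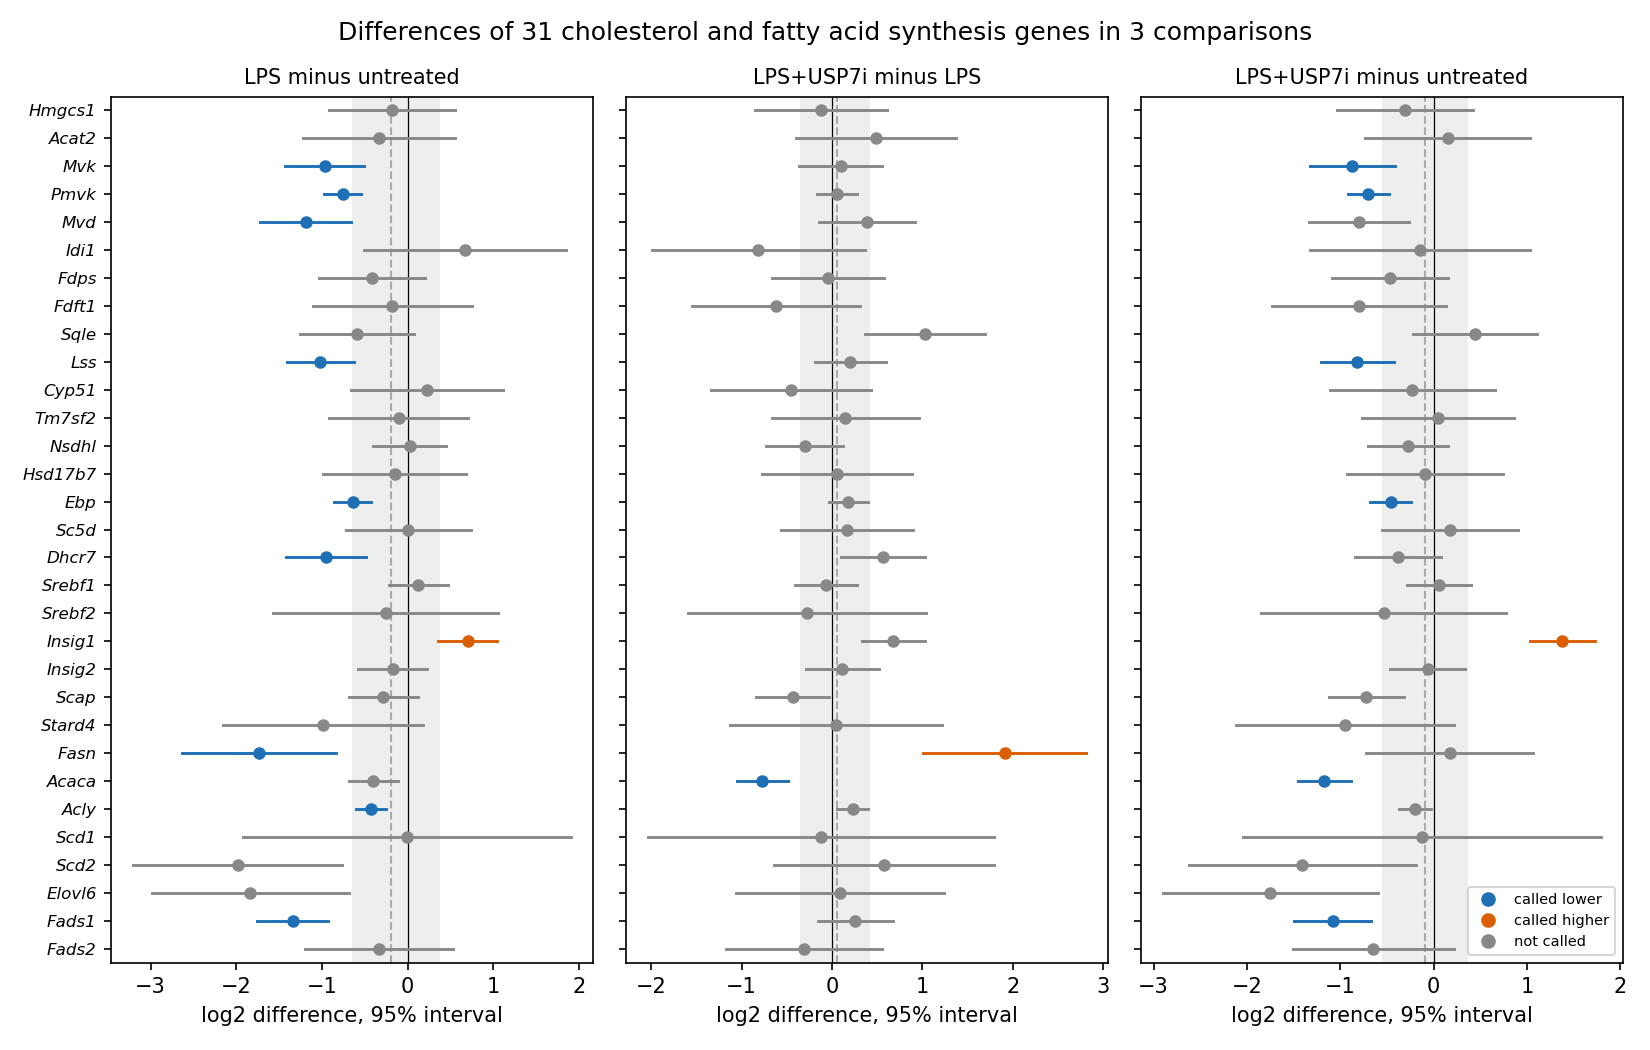
Log2 difference and 95% interval (limma) of each of the 31 genes in the 3 comparisons, which share arrays. Blue genes were called lower, orange genes higher and gray genes neither, the gray band holds the middle 50% of 18343 expressed genes and the dashed line is their median. With LPS 9 genes are blue and 1 is orange, and between LPS+USP7i and LPS only Acaca and Fasn are colored.

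Between LPS+USP7i and untreated cells, which share arrays with the comparisons above, 6 of the 31 genes were called lower (19.4%) and 1 higher (3.23%). The shares over all gene names were 8.72% and 6.15%, and over the expressed genes 15.6% and 10.8%. The genes called lower were Mvk, Pmvk, Lss, Ebp, Fads1 and Acaca, and the gene called higher was Insig1. The first 5 of these were also called lower with LPS alone and none of them was called between LPS+USP7i and LPS, where their differences were 0.096, 0.057, 0.20, 0.18 and 0.26. Those 5 values have 95% intervals that reach from -0.36 (Mvk) to 0.67 (Fads1), so a partial return toward the untreated level was not detectable or excluded for them. Of the 31 genes, 11 were called in at least 1 comparison, and 17 of the other 20 had log2 differences under 1 in size throughout, from -0.99 (Stard4) to 0.67 (Idi1).

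Many calls, but not all, were lost when one array was left out. With one array left out, where the lone array is assumed to vary like the others, the count of genes lower with LPS was 2 without untreated replicate 1, 1 without untreated replicate 2, 1 without LPS replicate 1 and 4 without LPS replicate 2. Pmvk was lost only without LPS replicate 1 and Fads1 only without untreated replicate 2. For LPS+USP7i against LPS, Acaca and Fasn were both lost without either untreated array, either LPS array or LPS+USP7i replicate 1, and Acaca also without LPS+USP7i replicate 2. Without either untreated array limma called 0 of all genes in that comparison (smallest adjusted p = 0.056, with 3680 and 3681 lower and 4333 higher at an unadjusted p under 0.05), the lone untreated array adding nothing to the estimate of variance, and with the differences of Fasn and Acaca at 1.91 and -0.77 as before. For LPS+USP7i against untreated, the count of lower genes was 1 without untreated replicate 1, 0 without untreated replicate 2, 3 without either LPS array and 1 without either LPS+USP7i array. In that comparison Acaca was lost only without untreated replicate 2, and Insig1 only without either untreated array. In fits of the 2 groups compared, Mvk and Mvd were not called with LPS, nor Mvk, Lss and Ebp between LPS+USP7i and untreated cells.

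Other genes of the same pathways, from lists drawn up alongside the set, moved in both directions. Their counts stand against the shares of expressed genes given above, 23.0% lower and 13.8% higher with LPS, and 7.29% lower and 9.73% higher between LPS+USP7i and LPS. Of 8 further sterol and isoprenoid genes on the array, 2 were called lower and 2 higher with LPS, and 3 lower and 0 higher between LPS+USP7i and LPS. The 2 higher with LPS and the 3 lower between LPS+USP7i and LPS include Idi2, which was above background on no array. Msmo1, the sterol C4-methyl oxidase, had levels of 13.11 and 13.43 untreated, 11.78 and 12.13 after LPS, and 12.63 and 12.47 after LPS+USP7i. It fell by 1.31 with LPS (limma adjusted p = 0.019), and its LPS+USP7i values lay between those of the other groups. Pdss1, which makes the isoprenoid tail of coenzyme Q, had levels of 6.62 and 6.86 untreated, 9.07 and 9.08 after LPS, and 7.38 and 7.70 after LPS+USP7i. It rose by 2.34 with LPS (adjusted p = 0.0044) and was lower with LPS+USP7i than with LPS (log2 difference -1.53, adjusted p = 0.020). Not every gene of this list lay nearer untreated with LPS+USP7i than with LPS. Erg28 had levels of 12.55 and 12.64 untreated, 11.81 and 11.80 after LPS, and 11.32 and 11.43 after LPS+USP7i.

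Of 24 further fatty acid genes, 4 were called lower (16.7%) and 5 higher (20.8%) with LPS, the latter counting Elovl2, which was above background on no array, and 1 lower (4.17%) and 5 higher (20.8%) between LPS+USP7i and LPS. Lpin1, the phosphatidate phosphatase lipin-1, had levels of 8.69 and 8.86 untreated, 4.55 and 4.83 with LPS, where it was not well above background, and 6.96 and 6.59 with LPS+USP7i. It was at least 16.9-fold lower with LPS than in untreated cells (limma adjusted p = 0.0031) and at least 4.23-fold higher with LPS+USP7i than with LPS (adjusted p = 0.017). Acsl1 and Acsl3, which activate long-chain fatty acids, moved in opposite directions. Acsl1 rose by 2.47 with LPS (adjusted p = 0.0054) and was lower with LPS+USP7i than with LPS (-1.33, adjusted p = 0.033), and Acsl3 fell with LPS (-1.85, adjusted p = 0.016) and was higher with LPS+USP7i (2.26, adjusted p = 0.022).

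Me1, malic enzyme, a source of NADPH, had levels of 9.45 and 8.91 untreated, 9.56 and 9.06 after LPS, and 11.23 and 11.35 after LPS+USP7i. The LPS+USP7i arrays stood above the other 4, and Me1 was higher by 1.98 with LPS+USP7i than with LPS (limma adjusted p = 0.032). Scd3, another stearoyl-CoA desaturase, was likewise higher by 1.28 in that comparison (adjusted p = 0.011).

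Of 10 further genes of SREBP processing and degradation, 3 were called lower and 3 higher with LPS (30.0% each), and 1 lower and 2 higher between LPS+USP7i and LPS. Spring1, a factor needed for SREBP cleavage, had levels of 7.07 and 7.11 untreated, 5.55 and 5.66 after LPS, and 7.43 and 6.97 after LPS+USP7i. It fell with LPS (-1.49, limma adjusted p = 0.013) and was higher with LPS+USP7i than with LPS (1.59, adjusted p = 0.023). Rnf145, a sterol-responsive ubiquitin ligase of the endoplasmic reticulum, had levels of 9.12 and 9.02 untreated, 10.72 and 10.84 after LPS, and 8.60 and 9.31 after LPS+USP7i. It rose by 1.71 with LPS (adjusted p = 0.023) and was lower with LPS+USP7i than with LPS (-1.83, adjusted p = 0.035). Mbtps1 and Erlin1, of the same list, had their lowest mean levels with LPS+USP7i. In untreated, LPS and LPS+USP7i cells these were 12.39, 11.69 and 11.45 for Mbtps1, and 12.02, 11.11 and 10.79 for Erlin1.

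Of 10 genes of oxysterol synthesis and liver X receptor targets, 1 was called lower and 1 higher (10.0% each) in each of the comparisons of LPS with untreated and LPS+USP7i with LPS, near or below those shares. Ch25h, cholesterol 25-hydroxylase, which makes the SREBP-suppressing sterol 25-hydroxycholesterol, had levels of 6.91 and 7.57 untreated, 14.74 and 14.53 after LPS, and 12.04 and 12.53 after LPS+USP7i. The groups were far apart. Ch25h rose by 7.39 with LPS (limma adjusted p = 0.0029), was lower with LPS+USP7i than with LPS (-2.35, adjusted p = 0.029) and remained 5.04 above untreated (adjusted p = 0.0064). Hsd3b7, which acts on oxysterols in bile acid synthesis, fell with LPS (-1.24, adjusted p = 0.0051) and was higher with LPS+USP7i than with LPS (1.09, adjusted p = 0.015).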

How the data were processed

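RNA was labeled with Cy3 and hybridized to 6 one-color Agilent mouse arrays. The authors deposited scanner files in which Agilent Feature Extraction 10.7.3.1 gives spot intensity, background and a background-corrected processed signal, and a table of log2 values that they normalized with limma by quantiles. Here control spots were removed, log2 processed signals were quantile-normalized, outlier-flagged spots were left out and spots averaged into 55681 probes. Limma 3.58.1 (lmFit, eBayes, R 4.3.3) was fitted to the 3 groups together, without covariates, over 55680 probes, with Benjamini-Hochberg adjustment over all of them and a threshold of 0.05. A gene was its brightest probe, and a few genes were matched under older symbols. The code of the fit was run on simulated data with independent errors between arrays, which does not test the calls made here. Array number, 2 per group, limits the precision.

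The genes and lists were chosen with earlier results of these data known. By rule, the text gives per-array values for genes called in at least 1 comparison or with a log2 difference of at least 1, and for other lists at most 4 called genes. Idi1, Scd1, Scap, Srebf2, Erg28, Mbtps1 and Erlin1 were added after their values were seen. A bound such as "at least 1.92-fold" sets the mean of the brighter group against, on each dim array, the higher of the gene's own signal and the lowest signal among probes well above background. Promoters come from RefSeq (GRCm38.p6) and probe positions from the array design (mm9), and no position was converted between them. The alternatives were 75th percentile scaling, normexp background correction with offset 50, the deposited log2 values, a filter on dim probes, keeping flagged spots, a trended prior, fits of 2 groups, a replicate block, leaving out each array, and the mean or median over a gene's probes. Replicate numbers coincide with slide columns, and the labels do not say whether they mark shared experiments. Deviations of same-numbered arrays from their group means correlated at 0.47, 0.40 and 0.42 in the 3 pairs of groups, so the value with the replicate block is given where it changes a call.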

Additional observations from a re-analysis of the deposited data

How the results depend on the processing

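With 2 arrays a group, small differences were not detectable. Keeping flagged spots kept all 24 calls and large differences named for the 31 genes on their side of the threshold. Under the median over probes, a gene was called where its probes passing in the same direction were at least as many as its other probes. It then carried the smallest adjusted p of its single probes. A gene with no more than 2 probes could therefore not lose a call under that setting, and the median itself was not tested. The median brought Acly with LPS to -0.23. The calls it added for Srebf2, higher with LPS and lower between LPS+USP7i and LPS, were those of its dimmer probe (limma adjusted p = 0.018 and 0.041). The mean over the Srebf2 probes gave neither call. Scaling to the 75th percentile moved the median of all genes by 0.40 for LPS against untreated and 0.44 for LPS+USP7i against untreated (log2), and changed the split of all calls with LPS from 4446 lower and 2779 higher to 4051 and 12184. It turned the sign of Acly with LPS (0.063) and ended the call of Ebp in both comparisons with untreated. With the deposited values 5 of the calls named were lost, including Pmvk between LPS+USP7i and untreated. For LPS+USP7i against LPS, genes lower numbered 0 with the deposited values and the mean over probes, and genes higher numbered 4 with normexp, 3 without dim probes, 2 with the mean over probes and 0 with a trended prior. A fit of those 2 groups alone called 0 genes of the set in either direction and 0 of all genes (limma, smallest adjusted p = 0.056, with 3681 lower and 4333 higher at an unadjusted p under 0.05), with fewer arrays to estimate the variance. For LPS+USP7i against untreated, 10 genes were lower without dim probes and 3 in the fit of 2 groups. The causes of the other shifts were not tested.

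With the replicate block, 10 genes were lower for LPS+USP7i against untreated, 2 were higher with LPS, and 0 were higher between LPS+USP7i and LPS. With the block, 7 of the 10 calls for LPS were kept, 1 of the 2 for LPS+USP7i against LPS, and 7 of the 7 for LPS+USP7i against untreated. The calls lost were Mvd, Dhcr7 and Fasn with LPS and Fasn between LPS+USP7i and LPS, and those gained were Idi1 (higher), Fdps, Acaca, Scd2 and Elovl6 with LPS, and Fdps, Scap, Scd2 and Elovl6 with LPS+USP7i against untreated. With each array left out in turn, genes lower with LPS numbered from 1 to 7 and genes higher from 0 to 1, those between LPS+USP7i and LPS numbered 0 lower and from 0 to 1 higher, and those between LPS+USP7i and untreated numbered from 0 to 3 lower and from 0 to 1 higher.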
